A study of Mus musculus with 6 samples.

Results

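Rab genes encode the largest family of Ras-related small GTPases. A Rab protein is active on a membrane when bound to GTP, where it recruits effectors that move, tether or fuse vesicles. Exchange factors load it with GTP, GTPase-activating proteins switch it off, and a GDP dissociation inhibitor returns it to the cytosol. In hepatocytes these proteins serve the secretion of plasma proteins, the recycling of receptors, delivery to lysosomes and bile canaliculi, and the surface of lipid droplets. The members were all mouse genes whose symbol is Rab followed by a number and at most 1 letter. Of 59 such genes in a RefSeq gene table, 57 had a named probe on the array, among 20659 named genes in all, and Rab36 and Rab44 were not analysed here. A signal well above the local background on at least 3 of 6 arrays was found for 47 of the 57, which were tested among 14805 genes.

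The arrays were 1-colour Agilent arrays, hybridised with RNA from livers of male mice of the outbred ICR stock. DECB mice received deproteinized extract of calf blood into the stomach daily for 35 days, dosed at 0.08 mL per 20 g of weight, and control mice received the same volume of normal saline (both 18 to 22 g at the start, with no age given). The 3 DECB arrays carry the numbers 4 to 6 and the 3 control arrays 1 to 3. The sample descriptions instead give 30 days for DECB and 1 day for control. The series also timed how long mice tolerated closed containers, and whether livers came before or after that is not stated. No label ties an array to 1 mouse, so the p-values cover only how far these samples scatter, and that scatter may be technical.

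Brightness differed by slide, here the arrays that share a scan date and time. The 75th percentile of signal was 84.8 on DECB 6 and 78.8 on control 1, which form slide 1, and 422 to 551 on the other arrays (slide 2 with DECB 4 and controls 2 and 3, slide 3 with DECB 5). Levels below are log2 of the signal over that percentile of the same array, so 0 is the array's own 75th percentile. Differences are DECB minus control on this scale. All 10 hepatocyte markers, among them Alb and Ttr, were well above background on all 6 arrays. The markers Krt7 (cholangiocyte), Cd3g (T cell) and Ngp (neutrophil) were so on none. In bulk RNA, fewer cells of a type and less RNA per cell cannot be told apart.

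One Rab gene passed the test. Rab30, which encodes a Golgi Rab and is known in mouse liver as a gene that fasting induces, fell 9.62-fold in DECB livers. In the limma fit over all 14805 genes with Benjamini-Hochberg adjustment, 0 of the 47 Rab genes rose and 1 fell at an adjusted p under 0.05. Of all genes 0.466% passed, 0.209% higher and 0.257% lower. At an unadjusted p under 0.05, 1 Rab gene was higher (Rab4b) and 2 were lower (Rab30 and Rab43), 3 of 47 against 10.0% of all genes (4.22% higher and 5.79% lower). With slide as a block, 2 Rab genes fell (Rab30 and Rab43) and 0 rose, where 6.67% of all genes passed (2.74% higher and 3.94% lower). At an unadjusted p under 0.05 that fit had 3 Rab genes higher and 6 lower, where 28.8% of all genes passed (12.1% higher and 16.7% lower).

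Rab30 stood at -1.78, -1.38 and -0.94 on DECB arrays 4, 5 and 6, against 2.18, 1.56 and 1.96 on control arrays 1, 2 and 3. The groups were far apart, with every DECB array below its array's 75th percentile and every control array above it. Before scaling, the processed signal was 124, 203 and 44.2 on DECB arrays 4, 5 and 6, against 358, 1244 and 2145 on control arrays 1, 2 and 3. The mean was -1.37 ± 0.42 in DECB and 1.90 ± 0.31 in control (SD, n = 3 each). The difference was -3.27 (SE 0.34, 95% interval -4.06 to -2.47, limma adjusted p = 0.026). Slide 1 alone gave -3.12 and slide 2 alone -3.54. A fit with slide as a block gave -3.36 (limma adjusted p = 0.0172). By p-value Rab30 ranked 13 among the 14805 genes. With 3 arrays a group, an exact permutation test cannot go below p = 0.1, the value that non-overlapping groups give.

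A second Rab30 probe gave the same order of groups. It read -3.12, -3.33 and -3.06 on DECB arrays 4, 5 and 6, and -0.86, -1.73 and -1.39 on control arrays 1, 2 and 3, a difference of -1.84. On DECB 6 this probe was not well above background, so its fall is not fully measured there. Over 15 alternative settings the Rab30 difference lay between -3.48 and -2.55. Its adjusted p lay between 0.0172 and 0.154, and the call was lost without control 1, control 2, control 3, DECB 4 or DECB 5, fits in which limma called 0 to 2 of all genes. It was also lost with no filter on dim probes and with controls 2 and 3 averaged, where limma called 0 and 2 of all genes.

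**Figure D1:**
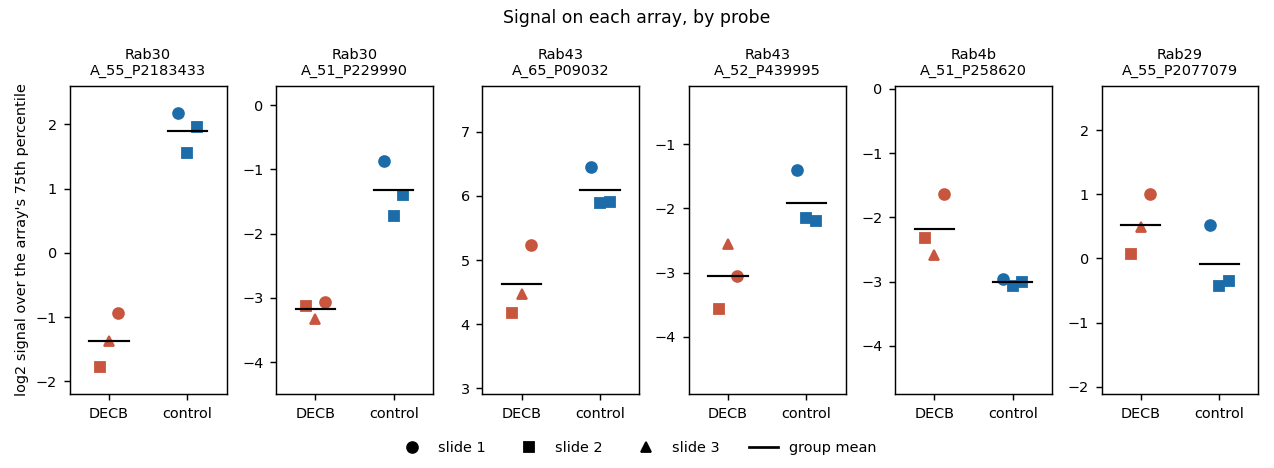
Log2 signal over the array's 75th percentile (vertical axis, of equal height in every panel) for DECB and control arrays, with a panel for each probe of Rab30 and Rab43 and for the main probe of Rab4b and Rab29. Points are arrays, shapes are slides and bars are group means; both Rab30 probes and both Rab43 probes lie lower on all 3 DECB arrays, Rab4b lies higher on all 3, and Rab29 overlaps.

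Rab43, a Golgi Rab that also takes part in the export of G protein-coupled receptors from the endoplasmic reticulum, had the next largest difference. It stood at 4.18, 4.47 and 5.24 on DECB arrays 4, 5 and 6, against 6.45, 5.89 and 5.91 on control arrays 1, 2 and 3. All DECB values lay below all control values, with DECB 6 nearest to them. The difference was -1.45 (SE 0.37, 95% interval -2.33 to -0.58), which did not pass over all genes (limma adjusted p = 0.194). It was -1.21 within slide 1 and -1.72 within slide 2, and passed with slide as a block (-1.50, limma adjusted p = 0.0291). Across 15 alternatives the difference ran from -1.76 to -1.23, and the block was the only one of them with a call. A second probe, not well above background on DECB 6, differed by -1.14, also with no overlap between the groups.

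Rab4b, a Rab of fast recycling from early endosomes, was the member with the largest positive difference. Its level was -2.33, -2.58 and -1.63 on DECB arrays 4, 5 and 6, and -2.97, -3.07 and -3.0 on control arrays 1, 2 and 3. The control arrays lay close together and the DECB arrays all lay above them, although control 1 was not well above background. The difference was 0.83 (SE 0.33, 95% interval 0.06 to 1.61) and did not pass (limma adjusted p = 0.457, unadjusted p = 0.0379). It was 0.31 with normexp background correction and 0.98 with slide as a block (limma adjusted p = 0.0615). Its paralog Rab4a differed by -0.31 (95% interval -0.93 to 0.32). At the main probe of each gene, Rab30, Rab43 and Rab4b were the 3 of 47 members whose groups did not overlap, 1 higher and 2 lower. Of all genes, 16.6% had no overlap (7.24% higher and 9.40% lower). Another probe of each of Rab30, Rab43, Rab9 and Rab33b also had no overlap, with DECB lower.

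Promoter windows from RefSeq (GRCm38.p6), 250 bases before to 50 after a transcription start, were held for 48 of the 59 members, 39 of them tested, with no entry for Rab30. Letters were searched on both strands, and a match describes letters only. The forkhead motif GTAAACA occurred in 1 of the 39, Rab43 (2.56%, against 3.49% of 11764 tested genes with a window). It lies on the reverse strand, from -136 relative to the start, in 1 of the 4 starts listed for Rab43. The half-site TGACG of cyclic AMP response elements occurred in 21 of 39 members (53.8%, against 31.3% of tested genes). The GC box GGGCGG was in 28 (71.8%, against 59.3%) and the CCAAT box in 21 (53.8%, against 42.4%). The nuclear receptor half-site AGGTCA was in 4 (10.3%, against 16.8%), and its direct repeat AGGTCANAGGTCA, which holds that half-site, in 0 (0.068% of tested genes). The E-box CACGTG was in 4 (10.3%, against 10.6%) and TATAAA in 2 (5.13%, against 11.7%). Shown are the Rab43 window with the forkhead motif, another Rab43 start, and the Rab4b window. Rab43 fell with slide as a block, as did Rab30, which has no window, and Rab4b had the largest positive difference. Capitals mark matches to the motifs above on either strand.
Rab43, start with the forkhead motif (GRCm38.p6, chr6:87809708-87810007, - strand): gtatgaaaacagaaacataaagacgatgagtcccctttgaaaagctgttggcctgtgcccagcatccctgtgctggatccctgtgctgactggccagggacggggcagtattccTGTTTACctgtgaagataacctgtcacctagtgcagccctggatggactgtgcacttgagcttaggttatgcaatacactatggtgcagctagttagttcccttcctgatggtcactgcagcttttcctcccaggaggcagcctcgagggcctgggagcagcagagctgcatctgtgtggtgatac
Rab43, another start (GRCm38.p6, chr6:87812049-87812348, - strand): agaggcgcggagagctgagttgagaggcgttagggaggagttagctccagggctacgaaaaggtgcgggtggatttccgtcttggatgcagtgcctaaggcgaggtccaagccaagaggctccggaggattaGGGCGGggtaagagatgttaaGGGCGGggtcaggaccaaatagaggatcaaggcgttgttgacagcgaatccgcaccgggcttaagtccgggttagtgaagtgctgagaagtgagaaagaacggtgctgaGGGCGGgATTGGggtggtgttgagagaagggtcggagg
Rab4b (GRCm38.p6, chr7:27178834-27179133, - strand): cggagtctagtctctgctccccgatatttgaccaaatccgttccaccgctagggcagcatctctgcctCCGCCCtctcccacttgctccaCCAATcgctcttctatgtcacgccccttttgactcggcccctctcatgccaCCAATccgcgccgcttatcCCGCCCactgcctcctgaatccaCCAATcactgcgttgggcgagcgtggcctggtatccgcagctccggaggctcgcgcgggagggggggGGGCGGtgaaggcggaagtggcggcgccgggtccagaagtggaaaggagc
The first Rab43 window holds 1 forkhead match and no GC box, and the other holds 3 GC boxes and a reverse CCAAT box. Rab4b holds 3 CCAAT boxes and 3 GC boxes.

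Among Rab genes of the endoplasmic reticulum and Golgi, 12 of 16 were tested, 1 fell and 0 rose. The 2 largest negative differences of all members were in this group (Rab30 and Rab43), while 8 of the 12 lay above 0 and the median was 0.14 (0.14 within slide 1, 0.04 within slide 2). Rab1a, which drives transport from the endoplasmic reticulum to the Golgi, differed by 0.39 (95% interval -0.78 to 1.55) and its paralog Rab1b by 0.07 (-0.91 to 1.06). Rab6a, a Rab of retrograde Golgi transport, stood at 2.59, 2.18 and 2.50 on DECB arrays 4, 5 and 6, against 2.3, 2.03 and 1.82 on control arrays 1, 2 and 3. The groups overlapped and the difference of 0.38 did not pass (limma adjusted p = 0.809). Rab2a, of the same early secretory route, differed by 0.35. Rab18, found on lipid droplets and the endoplasmic reticulum, differed by 0.21 with a wide interval (-1.31 to 1.73). Rab33b, a Golgi Rab with a role in autophagy, differed by 0.30 at its main probe and by -0.46 at its other probe. Rab39, Rab39b and Rab6b were not well above background on any array.

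**Figure D2:**
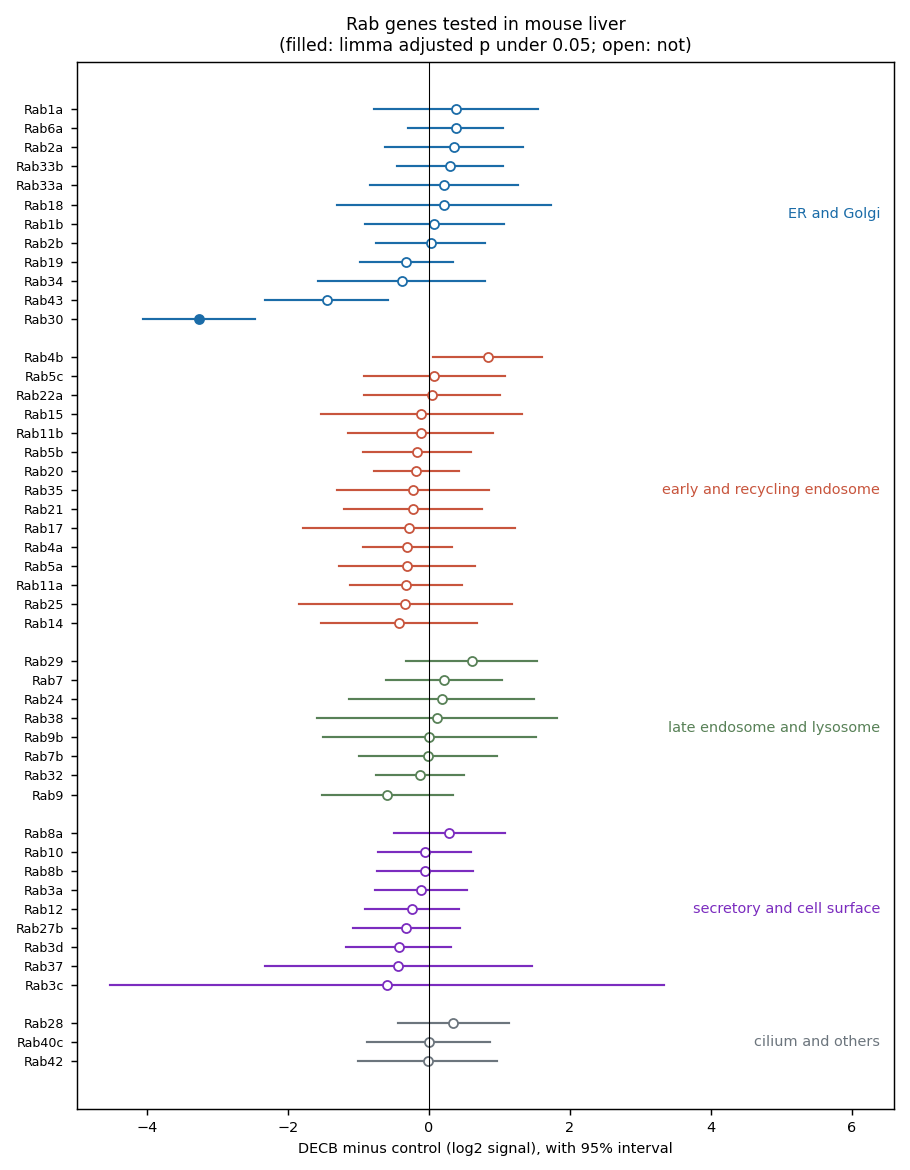
DECB minus control (horizontal axis, log2 signal) for the 47 tested Rab genes, grouped by the compartment they are known for, with 95% limma intervals as lines. The filled point is Rab30, the member past the adjusted threshold; Rab43 and Rab4b are the only other members whose interval leaves out 0.

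Among Rab genes of early and recycling endosomes, 15 of 16 were tested, 0 passed (limma; 1 at an unadjusted p under 0.05, Rab4b), and 12 lay below 0 (median -0.23, and -0.25 within slide 1 and -0.05 within slide 2). The 3 Rab5 genes, which drive fusion of early endosomes, differed by -0.31 (Rab5a), -0.17 (Rab5b) and 0.07 (Rab5c). Their 95% intervals were -1.28 to 0.65, -0.93 to 0.59 and -0.93 to 1.08. A 2-fold change in either direction lay outside the Rab5b interval. The Rab5a interval held a 2-fold fall but no 2-fold rise, and the Rab5c interval a 2-fold rise but no 2-fold fall. Rab11a and Rab11b, of slow recycling, differed by -0.33 and -0.12. Rab14, which acts between Golgi and endosomes, differed by -0.43 and Rab17, an epithelial Rab, by -0.29. Rab20 had a narrow interval, from -0.78 to 0.43.

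Of 8 Rab genes of late endosomes and lysosomes, all 8 were tested and 0 passed (limma; 0 at an unadjusted p under 0.05), with a median of 0.06. Rab29, a relative of Rab32 and Rab38 that recruits the kinase LRRK2 in human cells, had the smallest p of this group. It stood at 0.06, 0.48 and 1.01 on DECB arrays 4, 5 and 6, against 0.52, -0.43 and -0.35 on control arrays 1, 2 and 3. DECB 4 and DECB 5 lay below control 1, so the groups overlapped, and the difference was 0.60 (SE 0.39, limma adjusted p = 0.748). Within a slide it was 0.49 (slide 1) and 0.45 (slide 2), without control 1 it was 0.91, without DECB 6 it was 0.36, and with normexp it was 0.16. Rab7, which directs late endosomes to lysosomes, differed by 0.21 (95% interval -0.61 to 1.04). Rab9, which returns cargo from late endosomes to the Golgi, differed by -0.59, -0.55 and -0.36 at its 3 probes. The test was on the first, the main probe, which did not pass (limma adjusted p = 0.762). At the second the groups did not overlap.

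Among Rab genes of regulated secretion and the cell surface, 9 of 13 were tested, 0 passed (limma; 0 at an unadjusted p under 0.05) and 8 lay below 0 (median -0.24). Rab3d, a Rab of secretory granules, had the smallest p there. It stood at -1.68, -1.73 and -1.27 on DECB arrays 4, 5 and 6, against -0.70, -1.32 and -1.36 on control arrays 1, 2 and 3. DECB 6 lay above controls 2 and 3, and the difference of -0.43 did not pass (limma adjusted p = 0.796), with -0.22 without control 1. Rab8a and Rab10, which carry vesicles to the plasma membrane, differed by 0.29 and -0.06, the second with an interval of -0.72 to 0.60. Of the other 6 members, 3 were tested: Rab28, a Rab linked to cilia, stood at -2.21, -2.25 and -1.63 on DECB arrays 4, 5 and 6, against -2.24, -2.80 and -2.07 on control arrays 1, 2 and 3. The groups overlapped, control 1 was not well above background, and the difference was 0.34 (limma adjusted p = 0.892), 0.13 without control 2, 0.14 without DECB 6 and 0.06 with normexp. Rab40c and Rab42 differed by -0.01 and -0.02.

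Taking the 47 tested members as a set, 18 lay above 0 and 29 below (61.7% below, against 52.5% of all genes). The median difference was -0.11, against -0.03 for all genes, and -0.12 within slide 1 and -0.05 within slide 2. The typical size of a difference was smaller than that of all genes (median 0.24, against 0.31). A difference over 1 in size was found for 2 of 47, Rab30 and Rab43, against 8.71% of all genes. Of the 47, 13 had a 95% interval inside -1 to 1, and the intervals of the others reached a 2-fold change or more. The median half-width was 0.93. Of 14 members with more than 1 kept probe, 10 had probes of 1 sign and 4 did not (Rab5b, Rab10, Rab33b and Rab37).

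The 2 arrays of slide 1, which were also the dimmest, stood apart from the rest for most members, and the part of slide and of low signal in this cannot be told apart. Both slide 1 arrays (DECB 6 and control 1) lay outside the range of the other 4 arrays for 34 of the 47, above it for 20 and below it for 14 (72.3%, against 56.7% of all genes). The gap between slide 1 and the other arrays exceeded the DECB difference in size for 39 members. Rab3c, a neuronal Rab of synaptic vesicles, had the widest gap. Its main probe read 5.04, 5.74 and 0.84 on DECB arrays 4, 5 and 6, against 1.32, 6.19 and 5.88 on control arrays 1, 2 and 3. The 2 slide 1 arrays were low and the rest high, a gap of -4.63, and the difference of -0.59 had an interval of -4.52 to 3.34. A second Rab3c probe followed the first, and the other was not well above background on any array, so these probes disagree on whether the gene was detected. In 33 members the difference had the same sign within slide 1 as within slide 2. The shares of all genes for this count and for the 39 members above are not given here. Neither count is therefore read as particular to Rab genes. Rab30 and Rab43 were among the 8 members for which the group difference exceeded the slide gap.

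**Figure D3:**
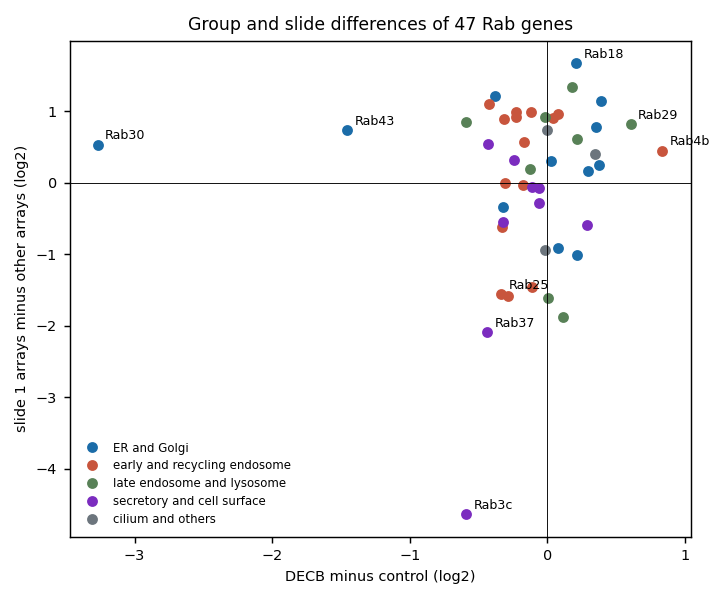
DECB minus control (horizontal axis, log2) against slide 1 arrays minus the other arrays (vertical axis, log2) for the 47 tested Rab genes, coloured by compartment. Rab30 and Rab43 stand out to the left with slide gaps of 0.53 and 0.73, and Rab3c at the bottom with -4.63.

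Of the 10 members too dim to test, Rab26, Rab39, Rab39b and Rab6b were not well above background on any array. Rab31 and Rab3b were so on 1 DECB and 1 control array. Rab13, Rab23, Rab27a and Rab40b, which include the granule Rab Rab27a, were so on DECB 5 and on no control array. DECB 5 also had the most probes well above background of the 6 arrays (29490), and among 5854 untested genes 26.9% were so on DECB arrays alone.

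Of the regulators of Rab proteins, 1 gene passed over all genes. The GTPase-activating proteins, which switch Rabs off, had 35 of 38 listed genes tested, of which 1 rose and 0 fell (1 higher and 5 lower at an unadjusted p under 0.05), and a median of -0.22 (-0.07 within slide 1, -0.28 within slide 2). Of all genes, 0.209% rose and 0.257% fell (limma). At an unadjusted p under 0.05, 4.22% of all genes were higher and 5.79% lower. Sgsm1, a TBC-domain protein that acts on Rab and Rap GTPases, rose 9.01-fold. It stood at -0.05, 0.46 and -0.20 on DECB arrays 4, 5 and 6, against -3.38, -2.81 and -3.12 on control arrays 1, 2 and 3. The groups were far apart, the probe was well above background on 5 of 6 arrays, and the difference was 3.17 (SE 0.31, limma adjusted p = 0.026). Its other probes did not all follow, with differences of 2.20 and -0.27, and at both the groups overlapped. At the probe with 2.20, DECB 4 (-3.52) lay below control 1 (-3.18), and that probe was well above background on 4 arrays. Over 14 alternatives the difference ran from 1.70 (mean of probes) to 3.32 and the limma adjusted p from 0.0172 to 0.193. The call was lost in 9 of them. Those were normexp (difference 1.73), mean of probes, no filter on dim probes, and controls 2 and 3 averaged. The others were the fits without control 1, control 2, control 3, DECB 4 or DECB 5. In all of these but normexp and mean of probes, limma called 0 of all genes higher. With 1 array left out the Sgsm1 difference ran from 2.98 to 3.32. Tbc1d16, a GTPase-activating protein for Rab4a, differed by -0.91, and Tbc1d4, the insulin-regulated AS160, by -1.15 (limma adjusted p = 0.274 and 0.312). The Tbc1d4 probe was well above background on 3 arrays, 1 DECB and 2 control. In the fit blocked by slide, Sgsm1 rose and 3 genes fell, Tbc1d16, Tbc1d8 (-1.31) and Tbc1d15 (-0.93), a Rab7 regulator. In that fit 2.74% of all genes rose and 3.94% fell. Tbc1d8 and Tbc1d15 were chosen after their values were seen.

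Exchange factors had 40 of 47 genes tested and 0 passed (limma; 0 higher and 1 lower at an unadjusted p under 0.05), with a median of -0.08. At that unadjusted threshold 4.22% of all genes were higher and 5.79% lower. Ric1, a subunit of the exchange factor of Rab6, differed by -1.04 (limma adjusted p = 0.424) and fell with slide as a block (limma adjusted p = 0.0347). With that block, 2.74% of all genes rose and 3.94% fell. Trappc4, a subunit of the complex that activates Rab1, differed by 0.60, and Dennd1c by -0.78. Effectors and adaptors had 64 of 74 genes tested and 0 passed (limma; 3 higher and 3 lower at an unadjusted p under 0.05), with a median of -0.10. The shares of all genes at the unadjusted threshold were again 4.22% higher and 5.79% lower. Kif20a, a mitotic kinesin first described as a Rab6 partner, differed by 1.62 (limma adjusted p = 0.099). Uso1, the Golgi tether p115 that Rab1 recruits, differed by 0.93 and rose with slide as a block (limma adjusted p = 0.0348). Rilp, which couples Rab7 to dynein, differed by -0.93 (limma adjusted p = 0.335). Plekhm1, another Rab7 effector and the 1 gene of this list that fell with slide as a block, differed by -0.87 and was chosen after its value was seen.

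The 16 genes for GDP dissociation inhibitors, escort proteins, prenylation and related membrane proteins were all tested and 0 passed (limma; 0 at an unadjusted p under 0.05), with a median of 0.02. The smallest p-values belonged to the Golgi proteins Yipf4, Yipf5 and Yipf6, with differences of -0.58, 0.72 and 0.65. Of Rab-like and related genes, 9 of 12 were tested and 0 passed (limma; 1 lower at an unadjusted p under 0.05), with a median of 0.10. At that unadjusted threshold 4.22% of all genes were higher and 5.79% lower. Lrrk2, a kinase of Rab proteins, differed by -1.20 (limma adjusted p = 0.448). It was well above background on 3 arrays in all. Ift22, a ciliary transport GTPase, and Ran, of nuclear transport, differed by 0.60 and 0.61. A second Ran probe differed by 1.32, with all DECB arrays above all control arrays.

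**Figure D4:**
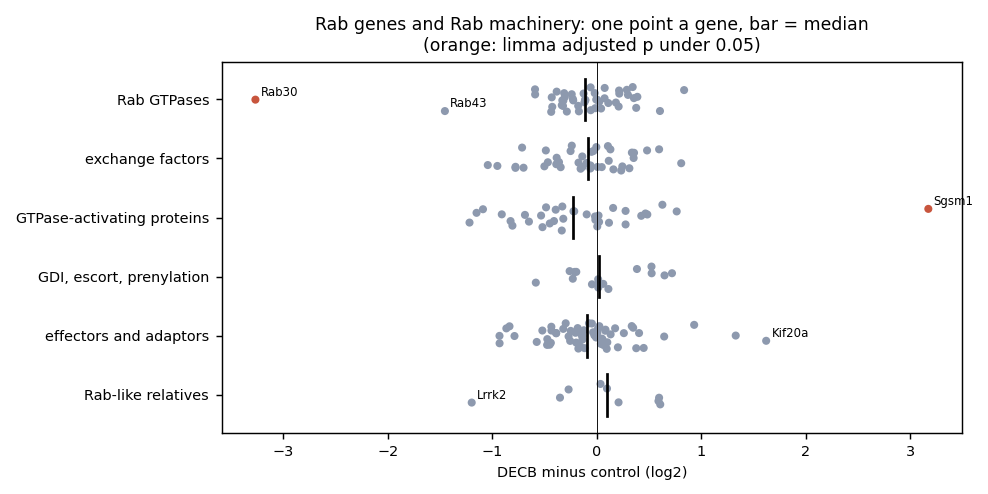
DECB minus control (horizontal axis, log2) for every tested Rab gene and gene of the Rab machinery, with a row for each list, a point for each gene and a bar at each median. Orange points passed the adjusted threshold, Rab30 at -3.27 and Sgsm1 at 3.17, and the list medians lie between -0.22 and 0.10.

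Other cell types were followed by marker lists, in none of which a gene passed over all genes. Neutrophil markers had 3 of 6 genes tested and a median of 1.57. Their summed level was 2.02 to 2.79 on DECB arrays, against 0.771 to 1.00 on control arrays. S100a9, the brightest of them, made up the largest part of each sum. S100a8 and S100a9 each differed by 1.57 and rose with slide as a block, where 2.74% of all genes rose. Camp, the other tested gene, differed by 0.59 at its main probe and by -0.14 at its other probe. Ngp was not well above background. Cholangiocyte markers had 5 of 7 tested, a median of 0.76 and a summed level of 2.51 to 32.3 on DECB arrays, against 1.31 to 7.65 on control arrays. Cftr, chosen after its values were seen, with a level of 4.95 on DECB 5, -0.27 on DECB 6 and -1.74 on control 1, made up most of the highest sum, and its difference of 1.25 had an interval of -2.56 to 5.06. Hepatocyte markers had a median of -0.42 and a summed level of 1734 to 2007 on DECB arrays, against 2088 to 2304 on control arrays. Medians were -0.36 for Kupffer, -0.27 for endothelial, -0.17 for stellate, 0.27 for lymphocyte markers (Cd3e had no value on DECB 4) and -0.13 for erythroid markers. Stab2, an endothelial scavenger receptor, fell with slide as a block (-1.05, limma adjusted p = 0.0463). Of the erythroid genes, Hba-a1 differed by -1.73 with no overlap (limma adjusted p = 0.191) and Alas2 by 0.88. The part of any of these in the differences of Rab30, Rab43 or Sgsm1 was not tested.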

How the data were processed

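Each array file as deposited is scanner output, per the file headers, of Agilent Feature Extraction 11.0.1.1, the version also in the submitters' processing notes. The processed intensity was background-subtracted and spatially detrended by the authors' software, per the file headers, and not normalized between arrays. The deposited value table is on a log2 scale (column median 5.34 in all 6) by an unstated method. Its levels went with those of the scanner files (r from 0.742 to 0.775). Its deviations between arrays did not follow them (r from -0.041 to 0.027). Its centring and the direction of its differences between arrays therefore stay unknown, and it entered no comparison.

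Control spots (1377) and outlier spots (164 to 322 per array) were left out, and no spot was saturated. Log2 intensity minus each array's 75th percentile was averaged over the spots of a probe. Probes well above background on at least 3 arrays were kept (25418 of 39429). RefSeq accessions named 27234 probes, and the brightest probe stood for a gene. Tests used R 4.3.3 and limma 3.58.1, two-sided, with Benjamini-Hochberg adjustment over 14805 genes. On simulated data for 14750 genes in the DECB and control design, 38 of 50 genes changed by 3 (log2) and 1 of 50 changed by 1 were called, with 7 false calls in all. The simulated noise was independent between arrays, with a spread per gene taken from the real scatter within groups. That scatter includes the slide gap, but no shift shared by the arrays of a slide was simulated. These counts therefore do not cover the slide gap as it stands in the real arrays. The number of arrays limits the precision. Normexp used median signals, since no mean signal is present. Alternatives were the background correction, scaling, filter, probe choice, slide and left-out arrays.

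Members, role groups and lists were chosen with earlier results of these data known. Members were named if called, among the 8 largest differences each way at an unadjusted p under 0.05, of the smallest p in a role group, or among the 6 largest differences each way without overlap. Others were named by role, and list genes if called or among the 3 smallest p-values.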

Additional observations from a re-analysis of the deposited data

How the results depend on the processing

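The count of Rab genes that rose stayed at 0 under all 15 alternatives (normexp, quantile normalization, array median scaling, both filters, slide as a block, without slide 1, mean of probes, controls 2 and 3 averaged, and each array left out). In some of these limma called 0 of all genes higher, so the Rab count could not be other than 0. Those were no filter on dim probes, controls 2 and 3 averaged, and without control 1, control 2, control 3, DECB 4 or DECB 5. The count that fell was 1, and it was 2 with slide as a block, 0 with no filter on dim probes and 0 with controls 2 and 3 averaged. With 1 array left out it ran from 0 to 1. The median difference, -0.11, ran from -0.15 to -0.03 with 1 array left out, and was -0.05 with normexp and -0.04 with slide as a block. Rab30, Rab43, Rab4b, Rab29, Rab3d and Rab28 kept their sign in every alternative that could test them, with differences from 0.06 to 0.49 for Rab28, 0.16 to 0.91 for Rab29, -0.58 to -0.22 for Rab3d and 0.31 to 1.03 for Rab4b. The alternatives for Sgsm1 were chosen after seeing the data. Its call was lost in 9 of 14. In all of those 9 but normexp and mean of probes, limma called 0 of all genes higher. Rab4b, Rab28 and Sgsm1 could not be tested with the filter that asks for all 6 arrays. Counts over all genes moved more, with 31 higher and 38 lower in the main setting, 405 and 583 when blocked by slide (DECB 5, alone on its slide, does not inform that contrast), and 0 in total with no filter (1257 genes at an unadjusted p under 0.05). The cause of these changes was not tested. No paired analysis was possible because the titles give the groups no replicate number in common; arrays were matched by slide alone. Signal over background limits the 13 tested members that were well above background on 3 to 5 arrays.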
